A study of Arabidopsis thaliana with 9 samples.

Results

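The 5 DELLA genes of Arabidopsis thaliana (GAI, RGA, RGL1, RGL2 and RGL3) and the 3 gibberellin receptor genes (GID1A, GID1B and GID1C) were followed across seedlings of 3 genotypes that carry different amounts of the flowering regulator CONSTANS (CO). These 8 genes were chosen by locus among the 32833 genes of the count table, because DELLA proteins are known inhibitors of CO, and all 8 passed the filter on low counts, as did 19149 genes in all. GAI (AT1G14920), RGL1 (AT1G66350) and RGA (AT2G01570) were the members whose transcript levels changed, and RGA moved differently from the other two. GAI and RGL1 were lowest in the line with CO driven everywhere and highest in the line with CO driven in the phloem, whereas RGA was highest in the line with CO driven everywhere. RGL2 (AT3G03450), RGL3 (AT5G17490), GID1A (AT3G05120), GID1B (AT3G63010) and GID1C (AT5G27320) did not pass in any comparison of the reported edgeR fit. Under 20 other settings, GID1A passed in 7 between the CO lines, among them DESeq2 (adjusted p = 0.0473). In SUC2:CO against Col-0, GID1B and GID1C passed in 1 setting each.

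RNA was sequenced from 9 soil-grown seedling samples of the Col-0 background, 3 per genotype, under long days (16 h light, 8 h dark) at 22 °C. Seedlings were 7 days past germination and were taken at zeitgeber time 14, which is 14 h after lights on. The genotypes were wild type Col-0, 35S:CO, in which the near-constitutive 35S promoter drives CO, and SUC2:HA:CO in the co-10 mutant (SUC2:CO below), in which the promoter of a phloem companion cell sucrose transporter drives CO. HA is an epitope tag, and every SUC2:CO sample carried co-10 while no other group did, so the mutation and the transgene cannot be told apart. The labels do not say whether replicates came from separate sowings or how many plants were pooled, so p-values measure the spread between these samples, which may be technical.

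DELLA proteins are nuclear repressors of the GRAS family that hold back growth and flowering. Gibberellin bound to a GID1 receptor lets the receptor grip the N-terminal DELLA domain, after which the F-box protein SLY1 marks the DELLA for destruction by the proteasome. DELLA proteins bind CO and reduce its activation of the florigen gene FT, and they raise the transcripts of several gibberellin synthesis and receptor genes in a feedback loop. Because much of this control acts on protein stability, the transcript levels given here do not measure DELLA protein.

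The coding letters at the DELLA motif are shown because they are the stretch that gives the family its name and that the receptors recognise. Each stretch has 39 bases, read 5′ to 3′ on the coding strand of the RefSeq genome TAIR10.1, with capitals for the 5 codons that align with the motif of GAI.
GAI: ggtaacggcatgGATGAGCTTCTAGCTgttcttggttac
RGA: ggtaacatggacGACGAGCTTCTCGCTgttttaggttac
RGL1: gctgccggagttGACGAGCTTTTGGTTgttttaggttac
RGL2: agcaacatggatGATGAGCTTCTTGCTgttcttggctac
RGL3: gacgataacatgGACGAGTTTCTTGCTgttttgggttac
They lie at chr1:5149483-5149521 on the plus strand (GAI), chr2:257189-257227 on the minus strand (RGA), chr1:24748408-24748446 on the plus strand (RGL1), chr3:821124-821162 on the minus strand (RGL2) and chr5:5765762-5765800 on the minus strand (RGL3). All are in the only exon of their gene. With residues counted from the start of GAI, RGL1 carries A32V and RGL3 carries L30F, and RGA and RGL2 keep the 5 residues of GAI.

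Each DELLA gene has 1 annotated exon and each receptor gene has 2, none overlaps another annotated locus, and 0% of the 50-base stretches of each transcript occur elsewhere in the genome. The encoded proteins are close relatives. GAI and RGA are 83.8% identical over 525 aligned residues, RGL2 and RGL3 are 76.4% identical, and GID1A and GID1C are 86.0% identical. The other pairs within either family share between 62.8% and 71.4% of their residues.

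Total counts ran from 25563118 to 26636174 per library. A count of 0 allows up to 0.113 to 0.117 CPM (the usual unit of counts scaled to library size), from 3 counts and for counting error only. That limit uses library totals without TMM scaling, while the levels given here use TMM-scaled library sizes. The CO transcript was 9.20 ± 1.1 CPM in Col-0, 637 ± 53.2 in 35S:CO and 53.3 ± 6.19 in SUC2:CO (SD, n = 3 each), with no overlap among genotypes and the highest level in 35S:CO. Counts include the transgene where its reads match the gene. Of 5 root markers, EXPA7 and RSL4 had 0 counts in all 9 libraries, and COBL9 and CASP1 had 8 or fewer in each. The summed level of the list ran from 4.39 to 11.5 CPM in Col-0, 0.158 to 0.352 in 35S:CO and 2.62 to 3.06 in SUC2:CO, and in Col-0 and SUC2:CO most of it came from the nitrate transporter gene NRT2.1. Defining root markers were thus at or near 0 in samples labelled as seedlings, and the part of the root markers in the results was not tested. NRT2.1, the only root marker that passed the filter on low counts, was lower in 35S:CO than in Col-0 (log2 fold change -5.24, adjusted p = 0.000208 by edgeR). It was also called lower in SUC2:CO than in Col-0 (-1.43) and in 35S:CO than in SUC2:CO (-3.81). The 3 green tissue markers summed to between 34907 and 51018 CPM, most of it from RBCS1A. Among them, LHCB1.1 was lower in SUC2:CO than in Col-0 (log2 fold change -1.87, adjusted p = 0.00358 by edgeR) and, between the CO lines, higher in 35S:CO (1.38, adjusted p = 0.0222). The 3 phloem markers ran from 349 to 484 CPM, with overlapping sums. Their members moved in opposite directions, since SUC2 fell in 35S:CO and SUC2:CO against Col-0 (-0.49 and -0.95, adjusted p = 0.0459 and 0.00099 by edgeR) and AHA3 rose (0.56 and 0.66, adjusted p = 0.0289 and 0.00626). SUC2 also differed between the CO lines and was higher in 35S:CO (0.47, adjusted p = 0.0403 by edgeR). The 3 meristem markers summed to 0 to 1.15 CPM in Col-0, 0 to 1.76 in 35S:CO and 0 to 0.162 in SUC2:CO. The 4 flower markers summed to 0.303 to 0.540 CPM in Col-0, 0.547 to 2.04 in 35S:CO and 1.41 to 3.89 in SUC2:CO, and SEP3 rose 5.98-fold in SUC2:CO over Col-0 (log2 fold change 2.58, adjusted p = 0.0139 by edgeR). The part of the green, phloem, meristem and flower markers in the results was not tested. In these whole-sample RNAs, fewer cells that express a gene and less RNA per cell cannot be told apart.

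In wild type, GAI, RGA and GID1A were the most abundant members and RGL3 the least. Per kilobase of transcript, the levels in Col-0 were 16.0 ± 0.598 CPM for GAI, 15.0 ± 1.54 for RGA and 14.3 ± 2.56 for GID1A (SD, n = 3), and these 3 did not differ beyond their spread. RGL1 followed at 6.43 ± 0.533 CPM per kilobase, GID1C at 3.40 ± 1.70, GID1B at 2.64 ± 0.50, RGL2 at 1.84 ± 0.0694 and RGL3 at 0.462 ± 0.213. GID1C and GID1B were also within their spread of each other. The order at the top depended on the length used, since per kilobase of coding sequence GID1A stood at 26.4, GAI at 24.3 and RGA at 19.7 CPM.

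**Figure D1:**
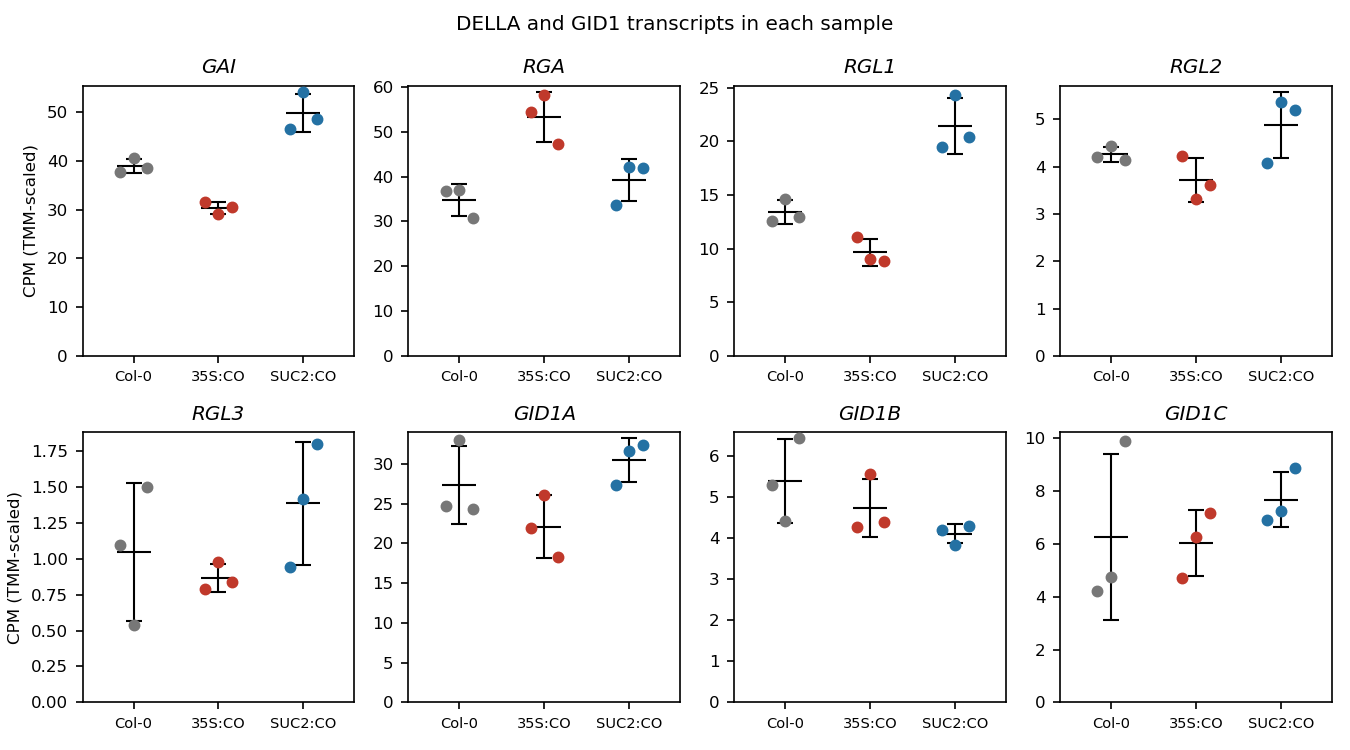
Transcript level of each DELLA and GID1 gene in CPM, with TMM-scaled library sizes, in each of the 9 samples (points, replicates 1 to 3 from left to right), with the mean and SD of each genotype in black. GAI and RGL1 have 3 separate groups of points, RGA is high in 35S:CO, and the receptors overlap between most genotypes.

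GAI, which with RGA carries most of the DELLA transcript, fell in 35S:CO and rose in SUC2:CO. Its level was 37.8, 40.6 and 38.5 CPM in the Col-0 replicates, 31.5, 29.0 and 30.6 in 35S:CO, and 46.5, 54.1 and 48.6 in SUC2:CO. The 35S:CO samples were all below and the SUC2:CO samples all above those of Col-0, with no overlap among the 3 genotypes. By edgeR's quasi-likelihood test with Benjamini-Hochberg adjustment over all 19149 genes, the log2 fold change was -0.36 ± 0.09 (SE) in 35S:CO against Col-0 (adjusted p = 0.0252) and 0.35 ± 0.09 in SUC2:CO against Col-0 (adjusted p = 0.0125). The comparison of the CO lines with each other gave the widest gap, with GAI 1.64-fold lower in 35S:CO than in SUC2:CO (log2 fold change -0.71 ± 0.09, adjusted p = 0.000509 by edgeR).

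RGL1, a DELLA gene known best from floral development, had the same order of genotypes as GAI and larger changes. The Col-0 replicates had 12.6, 14.7 and 12.9 CPM, the 35S:CO replicates 11.1, 9.02 and 8.86, and the SUC2:CO replicates 19.5, 24.3 and 20.4. No sample of one genotype reached into another, and the SUC2:CO samples stood farthest from the rest. RGL1 rose 1.60-fold in SUC2:CO over Col-0 (log2 fold change 0.68 ± 0.13, adjusted p = 0.00331 by edgeR). In 35S:CO it was lower than in Col-0 by a log2 fold change of -0.47 ± 0.13 (adjusted p = 0.0416) and 2.22-fold lower than in SUC2:CO (log2 fold change -1.15 ± 0.13, adjusted p = 0.000291).

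RGA, whose protein is the closest relative of that of GAI and acts with it in stem growth, went the other way in 35S:CO. Its level was 36.7, 37.0 and 30.6 CPM in Col-0, 54.3, 58.2 and 47.2 in 35S:CO, and 33.7, 42.1 and 41.8 in SUC2:CO. All 35S:CO samples were above all others, while SUC2:CO and Col-0 overlapped. RGA rose 1.53-fold in 35S:CO over Col-0 (log2 fold change 0.61 ± 0.12, adjusted p = 0.0103 by edgeR) and exceeded the SUC2:CO level 1.36-fold (log2 fold change 0.44 ± 0.12, adjusted p = 0.0323). Against Col-0, SUC2:CO gave a log2 fold change of 0.17 ± 0.12, which did not pass (adjusted p = 0.305).

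These calls differed in how firmly they held over 20 other settings. The GAI and RGL1 differences between the CO lines, and the rise of RGL1 in SUC2:CO, passed in 20 of 20. RGA in 35S:CO against Col-0 passed in 19, GAI in SUC2:CO against Col-0 in 18, and RGA between the CO lines in 16. The falls in 35S:CO against Col-0 were the least firm. GAI passed there in 12 of 20 settings, and leaving out any 35S:CO replicate, Col-0 replicate 2 or SUC2:CO replicate 3 ended the call, with adjusted p up to 0.142. RGL1 passed there in 6 of 20, and among samples left out the call held only without 35S:CO replicate 1, with adjusted p up to 0.188. GAI in SUC2:CO was lost without SUC2:CO replicate 2 (adjusted p = 0.0581), and RGA between the CO lines without 35S:CO replicate 1 or 2 or SUC2:CO replicate 1 (adjusted p up to 0.106). The direction was the same in all 20 settings for each of these 8 calls.

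**Figure D2:**
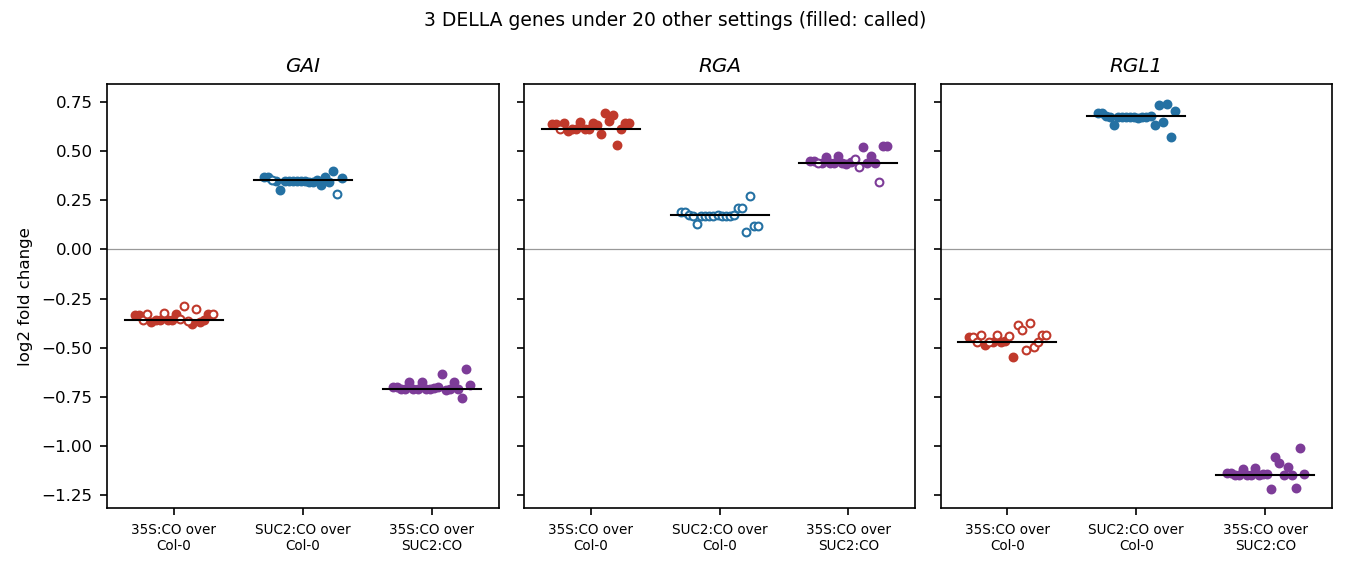
Log2 fold changes of GAI, RGA and RGL1 in the 3 comparisons under 20 other settings (points, filled where the call passed) with the value of the reported fit as a black line. All points of a called comparison lie on the same side of 0, and open points are most frequent for GAI and RGL1 in 35S:CO over Col-0.

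RGL2, which restrains seed germination, had 4.26 ± 0.161 CPM in Col-0, 3.72 ± 0.459 in 35S:CO and 4.89 ± 0.701 in SUC2:CO (SD, n = 3). Its log2 fold changes ran from -0.39 ± 0.17 between the CO lines (adjusted p = 0.133 by edgeR) to 0.20 ± 0.17 in SUC2:CO against Col-0 (adjusted p = 0.392), and replicates overlapped in every comparison. RGL3, linked to jasmonate and stress responses, was close to the limit of what these libraries resolve, with 13 to 47 counts per library. It had 1.04 ± 0.480 CPM in Col-0, 0.868 ± 0.0973 in 35S:CO and 1.39 ± 0.428 in SUC2:CO. The SE of its log2 fold changes was 0.39 to 0.40, so a difference of the size seen for GAI against Col-0 could not be resolved for RGL3. That SE holds spread between replicates as well as counting error, as in Col-0 with 29, 13 and 43 counts. The part of each was not tested.

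Over the 8 members, 3 were called in 35S:CO against Col-0 (1 higher, 2 lower) where 11.8% of all tested genes were called, 2 in SUC2:CO against Col-0 (both higher) where 32.3% of all tested genes were called, and 3 in 35S:CO against SUC2:CO (1 higher, 2 lower) where 18.8% were called. For SUC2:CO against Col-0 the share of members is thus near the background. The comparisons with Col-0 share the Col-0 samples, so their values are set side by side only. The median log2 fold change of the 5 DELLA genes was -0.28, 0.35 and -0.67 in those 3 comparisons, beside -0.04, -0.02 and 0.01 over all tested genes. The first and last of these DELLA medians are the value of RGL3 alone, which was not called (SE 0.40, adjusted p = 0.724 and 0.271 by edgeR). The middle one is the value of GAI. These medians therefore do not show a shift of the family.

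**Figure D3:**
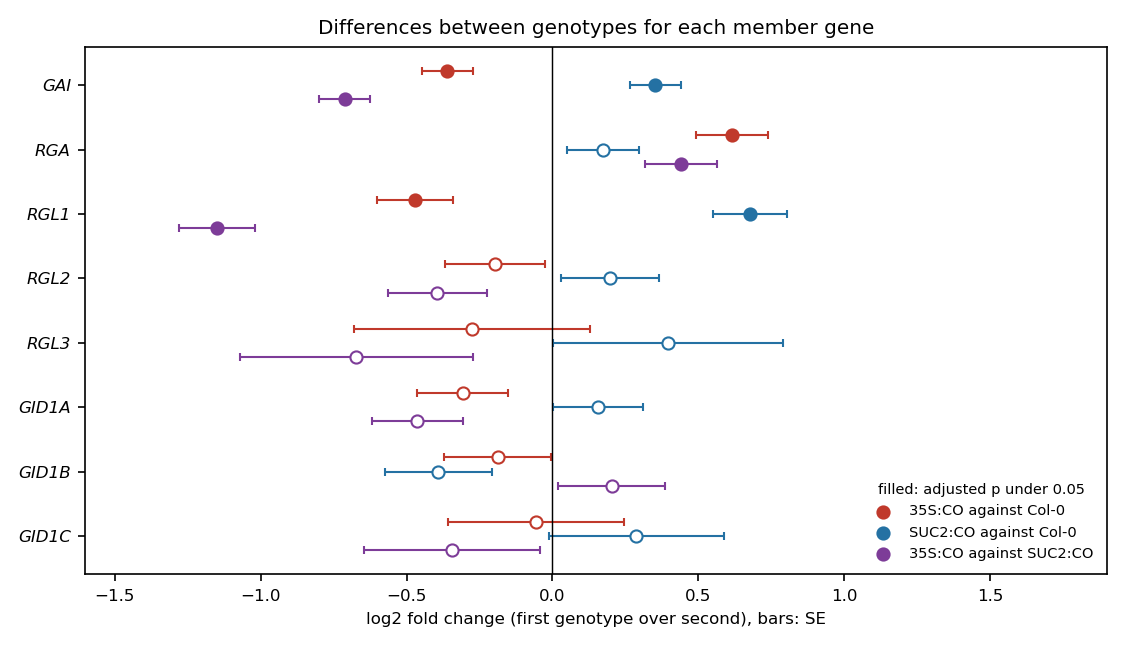
Log2 fold change with its SE (bars) for each member in the 3 comparisons; filled points have an adjusted p under 0.05 by edgeR. GAI and RGL1 are filled in all 3 comparisons, RGA in the comparisons that involve 35S:CO, and the other 5 genes are open throughout.

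In 35S:CO a larger share of the DELLA transcript pool was RGA, and smaller shares were GAI and RGL1, than in Col-0. Summed over the 5 genes, the level was 39.7 ± 2.07 CPM per kilobase in Col-0, 42.0 ± 2.57 in 35S:CO and 50.3 ± 4.94 in SUC2:CO (SD, n = 3). The sums of Col-0 (37.7 to 41.8) and 35S:CO (39.1 to 43.8) overlapped, and those of SUC2:CO (45.2 to 55.0) lay above both. Between samples with the same replicate number, 35S:CO was above Col-0 in all 3 pairs (43.8 and 39.7, 43.2 and 41.8, 39.1 and 37.7). RGA made up 37.6 ± 2.42% of the sum in Col-0, 54.5 ± 3.14% in 35S:CO and 33.5 ± 1.70% in SUC2:CO. The share of GAI was 40.4 ± 1.49% in Col-0, 29.8 ± 2.26% in 35S:CO and 40.7 ± 1.52% in SUC2:CO. RGL1 held 16.2 ± 0.824%, 11.0 ± 1.06% and 20.4 ± 1.01% in the same order. The ratio of RGA to GAI per kilobase was 0.935 ± 0.0932 in Col-0, 1.84 ± 0.243 in 35S:CO and 0.826 ± 0.0712 in SUC2:CO. These sums and ratios restate the levels of the single genes and were not tested.

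**Figure D4:**
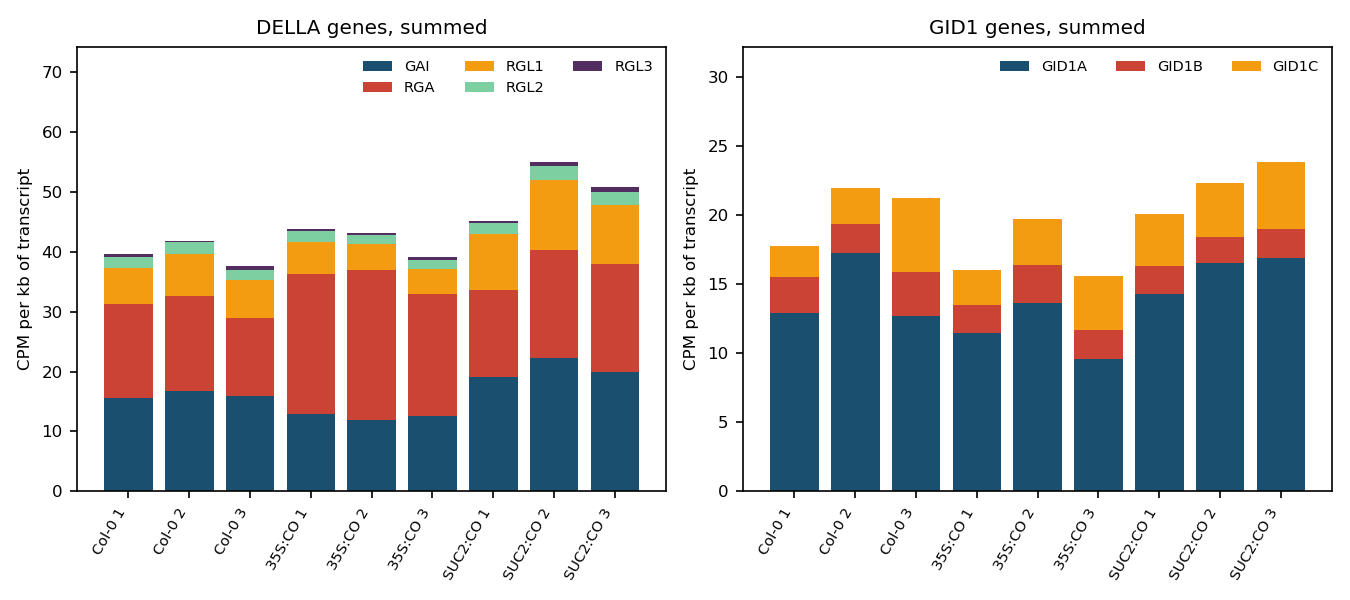
Summed level of the 5 DELLA genes (left) and the 3 GID1 genes (right) in CPM per kilobase of transcript, per sample, with each gene as a colour. RGA takes its largest share of the DELLA bar in the 35S:CO samples, and GID1A is the largest part of every receptor bar.

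The receptors showed no called difference in the reported edgeR fit: 0 of 3 in each comparison, with 0, 0 and 1 at an unadjusted p under 0.05 in 35S:CO against Col-0, SUC2:CO against Col-0 and 35S:CO against SUC2:CO. limma-voom also called 0 of 3 in each, and DESeq2 called only GID1A between the CO lines. GID1A, the most abundant receptor, had 24.7, 33.0 and 24.4 CPM in Col-0, 21.9, 26.1 and 18.3 in 35S:CO, and 27.4, 31.7 and 32.4 in SUC2:CO. The 2 CO lines did not overlap with each other, while each overlapped with Col-0. The log2 fold change of GID1A in 35S:CO against SUC2:CO was -0.46 ± 0.16 (adjusted p = 0.0640 by edgeR and 0.0473 by DESeq2), and it passed in 7 of 20 settings.

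GID1B, the receptor with the tightest gibberellin binding in vitro, had 5.30, 4.40 and 6.43 CPM in Col-0, 4.26, 5.55 and 4.38 in 35S:CO, and 4.20, 3.84 and 4.29 in SUC2:CO. All SUC2:CO samples were below all Col-0 samples, by a log2 fold change of -0.39 ± 0.18 that did not pass (adjusted p = 0.127 by edgeR). It passed without Col-0 replicate 2 (adjusted p = 0.0497). GID1C, the close relative of GID1A, had 4.20, 4.73 and 9.88 CPM in Col-0, so replicate 3 stood apart from the others. Its 35S:CO values were 4.69, 6.25 and 7.18 CPM and its SUC2:CO values 6.92, 7.23 and 8.88. In SUC2:CO against Col-0 the log2 fold change was 0.29 ± 0.30 (adjusted p = 0.489), and without Col-0 replicate 3 it was 0.78 (adjusted p = 0.0243). In 35S:CO against Col-0 it was -0.06 ± 0.30 (adjusted p = 0.932), and 0.44 without that replicate. The summed receptor level was 20.3 ± 2.24 CPM per kilobase in Col-0, 17.1 ± 2.28 in 35S:CO and 22.1 ± 1.88 in SUC2:CO (SD, n = 3), and receptor per DELLA transcript was 0.513 ± 0.0589, 0.408 ± 0.0461 and 0.440 ± 0.0317. The ratios of 35S:CO (0.367 to 0.458) and Col-0 (0.448 to 0.564) overlapped. In all 3 pairs with the same replicate number the ratio was lower in 35S:CO than in Col-0 (0.367 and 0.448, 0.458 and 0.525, 0.399 and 0.564). The labels do not state such a pairing, and these sums and ratios were not tested.

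The proteins that act on DELLAs were next examined through a list of 19 partner genes, of which 16 were tested. In 35S:CO against Col-0, 1 rose and 2 fell (18.8% called, median log2 fold change -0.21). In SUC2:CO against Col-0, 3 rose and 3 fell (37.5% called, median -0.07), and in 35S:CO against SUC2:CO 1 was higher and 2 lower (18.8% called, median -0.16). Over all tested genes 11.8%, 32.3% and 18.8% were called in these 3 comparisons, so in the last 2 the list is near the background, and in the first the gap amounts to about 1 gene. BRG3, a RING-domain protein of the BOI family that binds DELLAs, had the largest change of the list. It had 26.6, 26.4 and 22.9 CPM in Col-0, 112, 131 and 100 in 35S:CO, and 19.3, 20.2 and 18.3 in SUC2:CO. The 35S:CO samples stood far above all others, 4.53-fold over Col-0 (log2 fold change 2.18 ± 0.12, adjusted p = 1.3e-06 by edgeR) and 5.94-fold over SUC2:CO (2.57 ± 0.12, adjusted p = 1.28e-06). In SUC2:CO it fell below Col-0 (-0.39 ± 0.12, adjusted p = 0.0266 by edgeR), a call that passed in 16 of 20 settings and was lost without Col-0 replicate 1 or SUC2:CO replicate 1 or 3 (adjusted p up to 0.0833).

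The other BOI-family genes were not called in 35S:CO against Col-0, with log2 fold changes of -0.29 ± 0.11 for BRG1, -0.21 ± 0.11 for BRG2 and -0.69 ± 0.29 for BOI (adjusted p = 0.107, 0.271 and 0.153 by edgeR). BRG2 rose in SUC2:CO over Col-0 (log2 fold change 0.50 ± 0.11, adjusted p = 0.00694 by edgeR) and was lower in 35S:CO than in SUC2:CO (-0.71 ± 0.11). BRG1, like BRG3, fell in SUC2:CO (-0.59 ± 0.11, adjusted p = 0.00295 by edgeR). BOI itself was lower in 35S:CO than in SUC2:CO (-1.33 ± 0.29, adjusted p = 0.0110 by edgeR), a call that was lost without 35S:CO replicate 1 or SUC2:CO replicate 3 (adjusted p up to 0.0663). SCL3, a GRAS protein that works against DELLAs, fell in 35S:CO (-0.52 ± 0.11, adjusted p = 0.0129 by edgeR). In SUC2:CO it gave -0.33 ± 0.11 (adjusted p = 0.0423), a call lost without Col-0 replicate 1 or 2 or any SUC2:CO replicate (adjusted p up to 0.130). AT3G45260, a zinc finger gene of the INDETERMINATE DOMAIN family whose proteins tether DELLAs to DNA, fell in 35S:CO (-0.67 ± 0.16, adjusted p = 0.0242 by edgeR). That call was lost without Col-0 replicate 1 or 2 or any 35S:CO replicate (adjusted p up to 0.0805). The F-box gene SLY1 and the O-fucosyltransferase gene SPY had log2 fold changes between -0.12 and 0.09 and were not called.

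Genes known to be raised by DELLA proteins and lowered by gibberellin in seedlings formed a list of 14. This list includes GID1A and GID1B and shares SCL3, BOI, GA3ox1 and GA20ox2 with the other lists. Without the receptors, 10 of 12 were tested. Of these, 1 rose and 3 fell in 35S:CO against Col-0 (40% called, median log2 fold change -0.66), 1 rose and 3 fell in SUC2:CO against Col-0 (40%, median -0.33), and 2 were lower in 35S:CO than in SUC2:CO (20%, median -0.29), beside 11.8%, 32.3% and 18.8% of all tested genes. The last 2 shares are near the background. Between the CO lines the number called in the list of 14 fell to 1 without SUC2:CO replicate 1 or 2 and to 0 without 35S:CO replicate 1 or SUC2:CO replicate 3. AT5G50915, a bHLH gene, fell in 35S:CO (-1.38 ± 0.17, adjusted p = 0.000491 by edgeR) and in SUC2:CO (-1.04 ± 0.17, adjusted p = 0.00159). WRKY27, a WRKY factor, rose in both lines over Col-0 (0.88 ± 0.12 and 0.75 ± 0.12, adjusted p = 0.00112 and 0.00170 by edgeR). IQD22, a calmodulin-binding IQ-domain gene, fell in 35S:CO (-0.93 ± 0.17, adjusted p = 0.00629 by edgeR).

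Of 21 gibberellin metabolism genes, 10 were tested. One rose in 35S:CO, 3 fell in SUC2:CO, and 1 exceeded its SUC2:CO level in 35S:CO (10%, 30% and 10% called; medians -0.26, -0.44 and 0.06). Over all tested genes 11.8%, 32.3% and 18.8% were called, so the first 2 shares are near the background and the third is below it by about 1 gene. GA3ox1, which makes bioactive gibberellin and is raised by DELLAs, had 16.7, 7.27 and 8.31 CPM in Col-0, 3.83, 2.38 and 3.72 in 35S:CO, and 1.85, 1.70 and 0.191 in SUC2:CO. Both CO lines lay below Col-0 with no overlap, and SUC2:CO replicate 3, with 5 counts, was lowest. The fall in SUC2:CO was 8.61-fold (log2 fold change -3.11 ± 0.56, adjusted p = 0.00279 by edgeR), while that in 35S:CO did not pass (-1.70 ± 0.51, adjusted p = 0.0577) except with the replicate number as a block (adjusted p = 0.0364). GA3ox2, of the same oxidase family, exceeded its SUC2:CO level in 35S:CO (1.12 ± 0.23, adjusted p = 0.00848 by edgeR). In 35S:CO against Col-0 its value was 0.50 ± 0.22 (adjusted p = 0.187, and 0.0138 with the block). In SUC2:CO against Col-0 it was -0.62 ± 0.23 (adjusted p = 0.0616, and 0.00367 with the block). GA3ox2 was thus not called against Col-0 in either line by the reported fit, with values on opposite sides of 0. The inactivating oxidase gene GA2ox6 rose in 35S:CO (1.53 ± 0.41, adjusted p = 0.0355 by edgeR), a call that held only without 35S:CO replicate 3 or Col-0 replicate 1 (otherwise adjusted p up to 0.108). Its level was low, with means of 0.466 CPM in Col-0 and 1.36 in 35S:CO. GA2ox8 was also faint, with means of 1.89 CPM in Col-0 and 0.685 in SUC2:CO. In SUC2:CO, GA2ox8 fell (-1.46 ± 0.42, adjusted p = 0.0233 by edgeR), and the call was lost without Col-0 replicate 3 or any SUC2:CO replicate (adjusted p up to 0.0757). The kaurene oxidase gene GA3 fell there too (-0.42 ± 0.14, adjusted p = 0.0475 by edgeR), and that call held only without SUC2:CO replicate 3 (otherwise adjusted p up to 0.141).

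**Figure D5:**
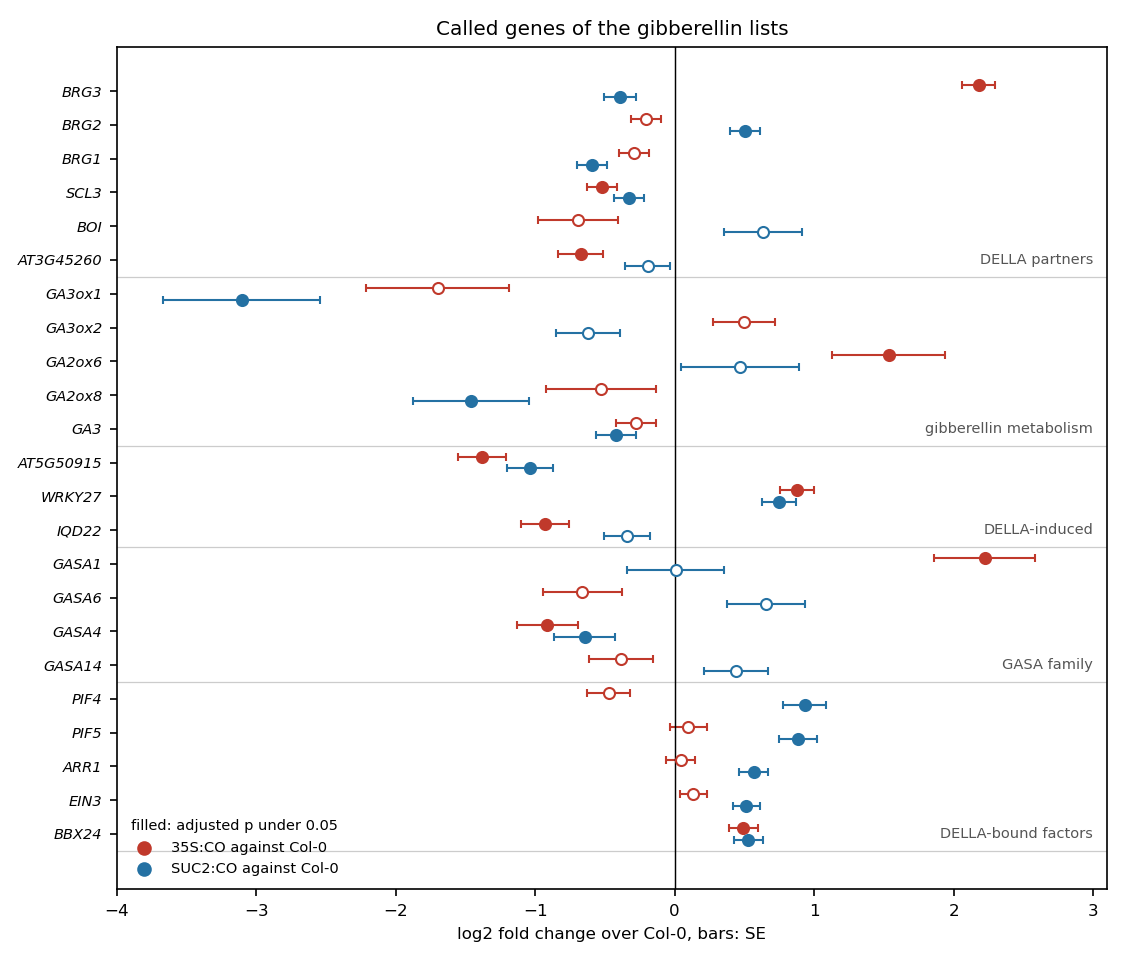
Log2 fold change over Col-0 with its SE (bars) in 35S:CO and SUC2:CO for the called genes with the smallest p (at most 6) of each of the 5 gibberellin lists. CO is left out and a gene of several lists is shown once. Filled points have an adjusted p under 0.05 by edgeR. BRG3 and GASA1 lie to the right in 35S:CO only, and GA3ox1 lies farthest to the left.

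The GASA genes, which encode small cysteine-rich peptides named for their response to gibberellin, had 7 of 14 tested. In 35S:CO against Col-0, 1 rose and 1 fell (28.6% called, median log2 fold change -0.25), 1 fell in SUC2:CO (14.3%, median 0.01), and 1 was higher and 2 lower between the CO lines (42.9%, median -0.27), where 11.8%, 32.3% and 18.8% of all tested genes were called and 1 gene of the list is 14.3%. GASA1 had 129, 271 and 98.9 CPM in Col-0, 588, 971 and 772 in 35S:CO, and 124, 159 and 217 in SUC2:CO. The 35S:CO samples were above all others, and Col-0 and SUC2:CO overlapped. GASA1 rose 4.67-fold in 35S:CO over Col-0 (log2 fold change 2.22 ± 0.36, adjusted p = 0.00314 by edgeR). GASA4 fell in 35S:CO (-0.91 ± 0.22, adjusted p = 0.0235 by edgeR), a call lost without 35S:CO replicate 2 or Col-0 replicate 1 or 3 (adjusted p up to 0.0913). It fell in SUC2:CO (-0.65 ± 0.22, adjusted p = 0.0435 by edgeR), a call lost without replicate 1 or 3 of either genotype (adjusted p up to 0.150). GASA6 was lower in 35S:CO than in SUC2:CO (-1.32 ± 0.28, adjusted p = 0.0108 by edgeR, and 0.0513 without SUC2:CO replicate 3). GASA14 was lower as well (-0.83 ± 0.23, adjusted p = 0.0314 by edgeR), a call lost without SUC2:CO replicate 1 or 3 or any 35S:CO replicate (adjusted p up to 0.110).

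Transcription factors reported to bind DELLA proteins numbered 20, of which 19 were tested. In 35S:CO 2 rose, CO among them, and 2 fell (21.1% called, median log2 fold change 0.10). In SUC2:CO 7 rose, CO among them, and 3 fell (52.6% called, median 0.37). Between the CO lines 2 were higher in 35S:CO, CO among them, and 4 lower (31.6% called, median -0.03). Over all tested genes 11.8%, 32.3% and 18.8% were called in these 3 comparisons, and the lines were built to differ in CO. PIF4, a growth-promoting bHLH factor that DELLAs keep from DNA, had 25.6 ± 3.93 CPM in Col-0, 18.4 ± 2.90 in 35S:CO and 48.8 ± 6.86 in SUC2:CO (SD, n = 3). It rose in SUC2:CO (0.93 ± 0.15, adjusted p = 0.00170 by edgeR) and was lower in 35S:CO than in SUC2:CO (-1.40 ± 0.16, adjusted p = 0.000262). PIF5, its close relative, rose in SUC2:CO (0.88 ± 0.13, adjusted p = 0.00122 by edgeR), as did the cytokinin response factor gene ARR1 (0.57 ± 0.10, adjusted p = 0.00277) and the ethylene response factor gene EIN3 (0.51 ± 0.10, adjusted p = 0.00358). BBX24, a B-box gene, rose in SUC2:CO (0.53 ± 0.11, adjusted p = 0.00453 by edgeR) and 35S:CO (0.49 ± 0.11, adjusted p = 0.0140), the latter lost without Col-0 replicate 1 (adjusted p = 0.0530).

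FT, the target through which CO acts, was called in every comparison. It had 2.27 ± 0.591 CPM in Col-0, 113 ± 31.5 in 35S:CO and 337 ± 24.8 in SUC2:CO (SD, n = 3). In 35S:CO against SUC2:CO, FT was lower (log2 fold change -1.57 ± 0.20, adjusted p = 0.000571 by edgeR) while CO was higher (3.58 ± 0.13, adjusted p = 3.61e-07). The FT paralogue TSF and the floral integrator SOC1 rose in both lines over Col-0, with log2 fold changes of 4.31 ± 0.71 and 2.39 ± 0.18 in 35S:CO and 4.02 ± 0.71 and 1.60 ± 0.18 in SUC2:CO. TSF was near the limit of detection in Col-0, with 0, 10 and 3 counts and a mean of 0.173 CPM. Without Col-0 replicate 2, its log2 fold change was 5.87 in 35S:CO and 5.55 in SUC2:CO.

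Among 15912 genes with a mean log2 CPM of at least 1, those most like each called member over the 9 samples were picked by Pearson correlation of log2 CPM, given as a description because samples share their genotype. GAI was most like LHCB4.3, which encodes a light-harvesting antenna protein (r = 0.992), and then RGL1 (r = 0.986). RGL1 was most like UBQ3, a polyubiquitin gene (r = 0.989), and then GAI. RGA was most like ATR2, a cytochrome P450 reductase gene (r = 0.987), and GLUR2, a glutamate receptor-like gene (r = 0.986). Between GAI and RGA the correlation was -0.58, and between GAI and RGL2 it was 0.86.

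Promoter letters of the 8 genes were searched on both strands from 250 bases before to 50 bases after the annotated start (RefSeq TAIR10.1) for CCACA and TGTGNNATG, associated with CO, for the G-box CACGTG, the evening element AAAATATCT and the gibberellin-response letters TAACAAA. GAI held the evening element, letters tied to evening-phased clock control, at base -136, and 2.81% of 27443 promoters hold it. The upstream stretch is shown with the element in capitals, at chr1:5148816-5148884 on the plus strand.
GAI upstream: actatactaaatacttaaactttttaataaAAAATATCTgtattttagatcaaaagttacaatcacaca
GID1C held CCACA at base -26, as do 33.5% of promoters, and RGL3, GID1A and GID1C held TAACAAA, as do 18.4%. No match to these letters lay in the windows of RGA, RGL1, RGL2 or GID1B. A match is a description of the letters only, and neither binding nor use was measured.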

How the data were processed

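The authors deposited whole-number counts of reads per gene, with no normalization, for 9 strand-specific RNA libraries. FastQC, STAR, featureCounts, limma and the build TAIR10 are named per the submitters' processing notes, and whether counting used strand is not given in the sources used here. Every count column was assigned to a sample by its label (0 unassigned). Of 32833 gene IDs, 32548 matched the RefSeq annotation TAIR10.1, which gave names, lengths and sequences, and 285 did not.

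Counts were fitted with edgeR 4.0.16 in R 4.3.3 after filterByExpr and TMM scaling, with genotype as the only term over all 9 samples. Quasi-likelihood tests were two-sided and adjusted by Benjamini-Hochberg over 19149 genes, and a gene was called at an adjusted p under 0.05. Each SE was derived from the F statistic of its fold change. CPM uses TMM-scaled library sizes, and lengths are those of the longest transcript. Total counts of 25563118 to 26636174 set the counting error only. Replicates of a genotype differed by more than that. Over genes above a low limit on the summed counts of 2 replicates, chi-square per degree of freedom between them ran from 8.38 (SUC2:CO replicates 2 and 3) to 32.8 (Col-0 replicates 1 and 2). These values use library totals without TMM scaling, so differences in library composition are part of them.

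The members and gene lists were chosen with earlier results of these data known. Named were the 8 members, from each list the called genes with the smallest p (at most 6), and the 2 genes most correlated with each called member. The DELLA-bound factors called lower against Col-0 are given as well. They were not followed over the alternatives and are not counted as named genes. Alternatives were 2 filters, 2 scalings, DESeq2 1.42.0, limma-voom 3.58.1, the replicate number as a block, fits without the genotype outside a comparison, each sample left out, an adjusted p under 0.01, and, added after seeing the data, nuclear genes only.

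Same-numbered samples of 35S:CO and Col-0 deviated together (correlations 0.435, 0.302 and 0.248), so the numbers were taken to pair these samples. In the comparisons with SUC2:CO such correlations ran only from -0.113 to 0.119. The reported fit leaves the pairing of 35S:CO and Col-0 out. With the replicate number as a block, GAI, RGL1 and RGA (3 members) were still called in that comparison. With the block in a fit of only these genotypes, 2 members were called. The fit was tested on simulated counts of 18999 genes for 35S:CO against Col-0, where it recovered 22.4% of changes of 0.5 on the log2 scale and 95.5% of changes of 1, with 7 of 152 calls false.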

Additional observations from a re-analysis of the deposited data

Results flagged for a closer look

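The change against Col-0 differed between 35S:CO and SUC2:CO for 3 members, which is the direct comparison of the CO lines by edgeR. For GAI the difference was -0.71 on the log2 scale (adjusted p = 0.000509), with all 3 samples of 35S:CO below and all 3 of SUC2:CO above those of Col-0. For RGL1 it was -1.15 (adjusted p = 0.000291), with the same arrangement of samples. For RGA it was 0.44 (adjusted p = 0.0323), with both lines on the same side of Col-0 on average. No group had the 4 samples needed to look for a single sample far from the rest.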

How the results depend on the processing

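The replicate block gave 3033 genes and 3 members for 35S:CO against Col-0, 6902 and 2 for SUC2:CO against Col-0, and 4348 and 4 for 35S:CO against SUC2:CO, where the pairing holds for the first only. There it changed the call of GA3ox1 and GA3ox2, both given above, and of no other named gene. Without pairing support, the block added GID1A (adjusted p = 0.0223) between the CO lines and changed the calls of BOI, GA3ox2, GA3 and GASA4 in SUC2:CO against Col-0.

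In 35S:CO against Col-0, members called were 1 with no filter, 1 in the fit of only the compared genotypes and 0 at an adjusted p under 0.01. Genes called were 1260 in that fit (72.0% of them higher, against 53.6%) and 925 at 0.01. At 0.01, SUC2:CO against Col-0 had 3012 genes and 1 member, and 35S:CO against SUC2:CO had 1413 genes. Leaving out 1 sample gave 1159 to 2167 genes and 1 to 2 members in 35S:CO against Col-0, 3572 to 6615 and 1 to 3 in SUC2:CO against Col-0, and 1584 to 4110 and 2 to 4 between the CO lines. The lowest gene counts came without 35S:CO replicate 2, SUC2:CO replicate 3 and SUC2:CO replicate 3. Partners called in SUC2:CO against Col-0 ranged from 2 (without SUC2:CO replicate 3) to 7, and DELLA-bound factors called in 35S:CO against Col-0 from 2 (without 35S:CO replicate 2) to 5. The cause was not tested. No called difference changed direction. Among differences that were not called, leaving out Col-0 replicate 3 changed the sign of GID1C (-0.06 to 0.44) and RGL3 (-0.28 to 0.08) in 35S:CO against Col-0 and of GASA1 in SUC2:CO against Col-0 (0.01 to -0.26). PIF5 in 35S:CO against Col-0, and TSF and BBX24 between the CO lines, also changed sign under at least 1 setting. Of the 8 calls of members, 4 held with each of the 9 samples left out, as did 34 of 48 calls of other named genes. No scaling moved the median of all genes by over 0.1 on the log2 scale. In the simulated counts, with 3 samples per genotype, changes of 0.5 on that scale were mostly missed. Fewer genes differed there than were called here, and all had the same spread, so the share missed in these data is not known.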
